A study of Mus musculus with 60 samples.

Results

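The change of gene expression in the hippocampus of wild-type (WT) mice within adulthood was measured by setting 10 samples of week 24 against 10 samples of week 8. These 20 were chosen by their labels, genotype wild type and ages 8 and 24 weeks, out of 60 samples in the series, and each age holds 5 samples labelled female and 5 labelled male. The others are 10 WT samples of week 3 and 30 samples of NLGF mice. In the NLGF line the endogenous App gene was edited to hold changes known from inherited Alzheimer's disease, so no transgene promoter drives it. WT week 3, NLGF week 8 and NLGF week 24, each with 5 females and 5 males, are used below only to set values beside the adult WT change. For NLGF week 8 female 1 the labels disagree, since its title gives week 8 and its age field 3 weeks, and the title was used. The labels name no treatment. A strain is not given in the sources used here, and the samples are described as biological replicates without naming the animals. The p-values therefore measure the spread between these samples.

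At week 8 the hippocampus of a mouse is that of a young adult, in which a few cell populations still divide. Neural stem cells of the dentate gyrus give rise to immature neurons, and oligodendrocyte precursors divide and pass through a committed stage before they make myelin. Both processes are known to slow with age. Blood vessels of the brain stop growing early in life and keep a basement membrane of type IV collagen and laminin around endothelial cells and pericytes. RNA of all these cells is pooled with that of the far more abundant neurons and glia in bulk tissue, so fewer cells of a type and less RNA per cell cannot be told apart.

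Between week 8 and week 24, 36 genes changed in WT hippocampus, 25 lower and 11 higher, and those that fell include genes of dividing cells, immature neurons, committed oligodendrocyte precursors and vessel walls. The committed precursor receptor Gpr17, the axon guidance protein Draxin, the type IV collagen genes Col4a1 and Col4a2, the proliferation genes Top2a and Mki67 and the vascular receptors Cd93 and Aplnr all fell. The cytokine Il33, the antiviral protein Zc3hav1 and the creatine synthesis enzyme Gatm rose. Gatm lost its call in 17 and Zc3hav1 in 8 of 20 fits that left out 1 library. Among the called immature neuron genes, Dpysl3, Dpysl5, Nes and Mex3a lost theirs in 11, 12, 10 and 18 of these fits. The oligodendrocyte lineage gene Casr lost its call in 16, while Gpr17 and Draxin lost theirs in 0. The immature neuron marker Dcx was not called. The lists of mature neuron, synapse, astrocyte and microglia genes used below held no call. In lists of this size that is close to the 0.209% called over all genes tested, so it does not set them apart. Of 24 homeostatic microglia genes tested, 7 were higher and 0 lower at an unadjusted p under 0.05, against 5.42% and 5.65% of all genes tested.

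These 36 were 0.209% of 17199 genes tested with edgeR's quasi-likelihood test, called at a Benjamini-Hochberg adjusted p under 0.05, with sex as a covariate. The 25 lower genes were 0.145% and the 11 higher genes 0.064% of all tested. At an unadjusted p under 0.05 there were 1903 genes, 5.42% of all tested in the higher and 5.65% in the lower direction. The median log2 fold change over all genes tested was -0.0050. A change of at least 2-fold was found in 8 of the 36, 3 higher and 5 lower, and 30 of the 36 had a mean level of at least 1 CPM (counts scaled by library size) over the 20 libraries. The plot of fold change against p shows all 17199.

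**Figure D1:**
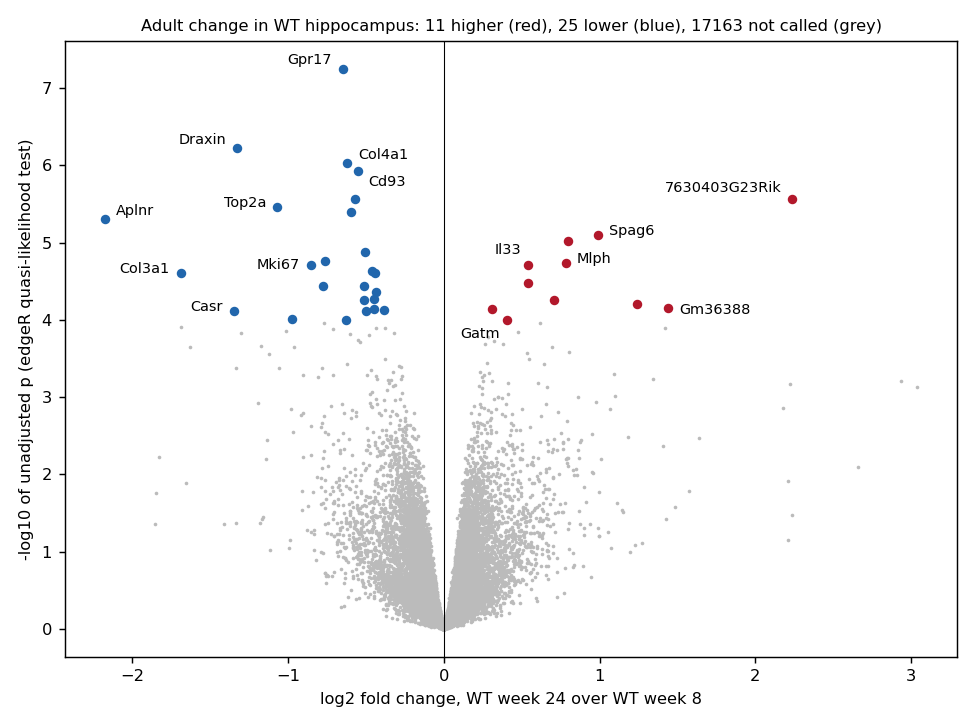
Each point is 1 of 17199 genes, with the log2 fold change of WT week 24 over week 8 on the x axis and the negative log10 of the unadjusted p on the y axis. The 25 lower genes (blue) include the smallest p (Gpr17) and the lowest fold (Aplnr), and the 11 higher genes (red) are led by 7630403G23Rik.

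All 36 genes had the same direction in males and in females. They were called in the pooled libraries of both sexes, so this is no independent support in each sex. In 6 of the 36 the 10 libraries of week 24 did not overlap the 10 of week 8 in CPM, which was the case for 0.0407% of all genes tested (7 of 17199). These 6 are Draxin, Col4a1, Cd93, Top2a and Chst3, lower at week 24, and Lin52, higher at week 24.

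Week 8 libraries summed to between 19.3 M and 28.04 M counts and week 24 libraries to between 21.3 M and 33.8 M, and the sex label matched Xist and the Y-linked gene Ddx3y in 20 of 20. The library WT week 8 female 1 stands apart: its median correlation with the other libraries was 0.971, its mitochondrially encoded genes summed to 6050 CPM (at least 11953 CPM in every other library), and the noncoding RNAs Rn7sk and Bc1 stood at 2681 and 2.87 CPM (at least 5192 and 15.9 CPM in the others). Without it 31 genes were called, of which 27 were among the 36. Defining markers of the hippocampal cell types were present at both ages, such as Prox1 of granule cells (median 143 CPM at week 8 and 120 CPM at week 24), Fibcd1 of CA1 pyramidal cells (median 170 and 192 CPM), Slc1a2 of astrocytes and Mbp of oligodendrocytes. Genes of the choroid plexus, a tissue beside the hippocampus, summed to 209 to 7878 CPM at week 8 and to 224 to 8602 CPM at week 24. Markers of mural cells and meninges summed to 345 to 1041 CPM (median 553) at week 8 and to 374 to 862 CPM (median 467) at week 24, with week 8 female 3 and week 24 male 4 the highest of their age.

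The oligodendrocyte lineage was examined first, because the smallest p of the whole comparison belongs to it. Over all genes tested, 0.145% were called lower and 0.064% higher, and 5.65% and 5.42% were so at an unadjusted p under 0.05. These shares stand beside the counts of every list below. The lists were chosen with earlier results of these data known. Gpr17, a G protein-coupled receptor that marks precursors committed to become oligodendrocytes and is shut off in mature cells, stood at 46.4 to 78.2 CPM at week 8 (median 64.1) and at 33.9 to 47.1 CPM at week 24 (median 40.3). Of the 10 libraries of week 24, 9 lay below the lowest of week 8. The log2 fold change of Gpr17 was -0.65 ± 0.081 (SE, adjusted p = 0.000984). At week 3 the same gene stood at 103 to 229 CPM (median 160).

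Casr, the receptor for extracellular calcium, ranged from 0.396 to 2.58 CPM (median 1.253) at week 8 and from 0.245 to 0.865 CPM (median 0.409) at week 24. All 10 libraries of week 24 lay below the median of week 8, and 5 lay below its lowest library. Its log2 fold change was -1.35 ± 0.28 (adjusted p = 0.0406), from a median of 8.18 CPM at week 3. The call of Casr was lost in 16 of 20 fits that left out 1 library, with an adjusted p of up to 0.0896. Of 18 tested genes of the committed and newly formed oligodendrocyte list, 2 fell (Gpr17 and Casr) and none was called higher. The share called lower over all genes tested was 0.145%. At an unadjusted p under 0.05 the list had 8 lower and 0 higher members, 17 of its 18 log2 fold changes were below 0, and its median was -0.18.

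Bmp4, a secreted growth factor of this list, missed the threshold at -0.96 ± 0.22 (adjusted p = 0.0659), with 2.64 ± 0.94 CPM at week 8 and 1.34 ± 0.47 CPM at week 24 (SD, n = 10). Among 15 tested genes of the oligodendrocyte precursor list, Gpr17 was the only call, and the median was -0.093. Pdgfra, the growth factor receptor that defines these precursors, was at -0.12 ± 0.062 (adjusted p = 0.469) and the proteoglycan Cspg4 at -0.16 ± 0.081 (adjusted p = 0.473). Both ages overlapped widely for Pdgfra, at 65.0 to 85.9 CPM and 57.4 to 79.2 CPM.

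The list of oligodendrocyte and myelin genes gave 1 call of 27 tested, in the higher direction, and the called gene is not a structural myelin gene. Il33, a cytokine kept in the nucleus of oligodendrocytes and some astrocytes, stood at 28.05 to 46.1 CPM at week 8 (median 36.2) and at 34.8 to 63.3 CPM at week 24 (median 54.7). In 8 of 10 libraries of week 24 it lay above every library of week 8, the exceptions being week 24 females 1 and 4. The log2 fold change was 0.54 ± 0.10 (adjusted p = 0.0211), and its week 3 median was 10.8 CPM. The myelin list had 3 higher and 5 lower members at an unadjusted p under 0.05 and a median of -0.094. Neither of these structural myelin genes was called: Mbp was at -0.19 ± 0.13 (adjusted p = 0.605) and Mog at -0.27 ± 0.15 (adjusted p = 0.506).

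Of 30 tested genes of immature neurons and of the neurogenic niche, 5 fell and none was called higher. Of all genes tested, 0.145% were called lower. The 5 are Draxin, Dpysl3, Dpysl5, Nes and Mex3a. Without week 8 female 1 the list had 3 calls, as Nes (adjusted p = 0.0556) and Mex3a (0.0732) missed the threshold. Another 7 members were lower at an unadjusted p under 0.05 (12 lower and 0 higher in all), 25 of 30 were below 0, and the median log2 fold change was -0.25.

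Draxin, a secreted protein that repels growing axons (chr4:148098437-148131139), stood at 1.35 to 4.14 CPM at week 8 (median 1.91) and at 0.525 to 1.34 CPM at week 24 (median 0.837). The ages did not overlap, and the highest value of week 8 was that of female 1. The log2 fold change was -1.33 ± 0.19 (adjusted p = 0.00506), and -1.19 ± 0.17 without that library (adjusted p = 0.00386). The week 3 median was 3.31 CPM.

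Dpysl3 and Dpysl5 encode collapsin response mediator proteins, which act on the cytoskeleton of growing axons. Dpysl3 moved from 66.3 to 119 CPM (median 90.5) at week 8 to 55.9 to 78.2 CPM (median 67.2) at week 24, a log2 fold change of -0.43 ± 0.086 (adjusted p = 0.0326). Dpysl5 moved from 32.01 to 57.2 CPM (median 44.2) to 28.5 to 42.6 CPM (median 32.5), a log2 fold change of -0.45 ± 0.090 (adjusted p = 0.0368). For both, all 10 libraries of week 24 lay below the median of week 8, while the ranges overlapped. Dpysl3 lost its call in 11 and Dpysl5 in 12 of 20 fits without 1 library. Their week 3 medians were 123 and 68.7 CPM.

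Nes encodes nestin, an intermediate filament of neural stem cells that endothelial cells can also express. It stood at 13.4 to 26.2 CPM (median 16.7) at week 8 and at 11.04 to 14.5 CPM (median 12.4) at week 24, a log2 fold change of -0.51 ± 0.10 (adjusted p = 0.0368). Nes lost the call in 10 of 20 fits without 1 library. Mex3a, an RNA-binding protein of stem and progenitor cells, stood at 4.11 to 9.22 CPM (median 6.79) and at 3.43 to 4.92 CPM (median 4.36). Its log2 fold change was -0.62 ± 0.13 (adjusted p = 0.0486), and it lost the call in 18 of 20 fits that left out 1 library.

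The best known marker of immature neurons, Dcx, was not called. Its level was 14.1 to 55.7 CPM (median 20.03) at week 8 and 10.3 to 21.6 CPM (median 17.7) at week 24, and the log2 fold change of -0.46 ± 0.20 had an adjusted p of 0.420. Sox11, a transcription factor of newborn neurons, was just outside the threshold at -0.44 ± 0.095 (adjusted p = 0.0529), with 6 of 10 libraries of week 24 below the lowest of week 8. Igfbpl1, named here after its value was seen because it had the lowest fold of the list, was at -1.63 ± 0.37 (adjusted p = 0.0659), with 3.29 ± 1.7 CPM at week 8 and 1.051 ± 0.71 CPM at week 24 (SD, n = 10).

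Among cell cycle and DNA replication genes, 2 of 22 tested fell, Top2a and Mki67, and none was called higher. Of all genes tested, 0.145% were called lower. Both are made by cells that prepare for or pass through mitosis: Top2a encodes the topoisomerase that untangles sister chromosomes, and Mki67 the proliferation antigen Ki-67. The list had 8 lower and 0 higher members at an unadjusted p under 0.05, 21 of 22 log2 fold changes were below 0, and the median was -0.22.

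Top2a (chr11:98992947-99024199) stood at 1.90 to 4.27 CPM (median 2.35) at week 8 and at 0.792 to 1.69 CPM (median 1.36) at week 24, with no overlap. Top2a had a log2 fold change of -1.07 ± 0.18 (adjusted p = 0.00853), and the week 3 median was 5.68 CPM. Its promoter is shown because it is dense in CCAAT boxes, a short motif that is frequent upstream of mitotic genes. The RefSeq window in build GRCm38.p6, chr11:99024140-99024439 on the minus strand, covers 250 bases before the start site and 50 after it, 5′ to 3′. Capitals mark CCAAT and GGGCGG (GC box) on either strand, so that they also appear as ATTGG and CCGCCC.
Top2a: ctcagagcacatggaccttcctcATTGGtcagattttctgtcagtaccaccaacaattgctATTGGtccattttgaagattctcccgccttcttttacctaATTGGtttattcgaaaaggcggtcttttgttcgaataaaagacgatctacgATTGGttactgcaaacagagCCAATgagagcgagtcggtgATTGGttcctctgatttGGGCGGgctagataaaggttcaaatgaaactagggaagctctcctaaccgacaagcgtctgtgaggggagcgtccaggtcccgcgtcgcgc
The window holds 6 CCAAT matches and 1 GC box, and the matches do not overlap one another.

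Mki67 stood at 2.16 to 7.16 CPM (median 4.58) at week 8 and at 1.96 to 3.23 CPM (median 2.70) at week 24. All 10 libraries of week 24 lay below the week 8 median, and week 8 male 3 lay within the range of week 24. Mki67 had a log2 fold change of -0.85 ± 0.16 (adjusted p = 0.0211), from a week 3 median of 9.54 CPM. Ccnb1, the mitotic cyclin B1, was at -1.34 ± 0.32 and was not called (adjusted p = 0.101).

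Other called genes with known roles in dividing or growing cells belong to no list. Aspm, a protein of the mitotic spindle poles, stood at 0.503 to 1.52 CPM (median 1.054) at week 8 and at 0.312 to 0.892 CPM (median 0.485) at week 24, a log2 fold change of -0.97 ± 0.21 (adjusted p = 0.0486). Aspm lost the call in 17 of 20 fits without 1 library (adjusted p = 0.0643 without week 8 female 1). Mycn, a transcription factor of neural progenitors, stood at 8.42 to 12.6 CPM (median 10.2) and at 6.49 to 9.16 CPM (median 7.06), a log2 fold change of -0.50 ± 0.091 (adjusted p = 0.0191). For Mycn, 8 of 10 libraries of week 24 lay below every library of week 8. Its week 3 median, 11.4 CPM, was near that of week 8, and the log2 fold change of week 8 over week 3 was -0.15 (adjusted p = 0.558).

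Tead2, a transcription factor of the Hippo pathway, had a median of 2.62 CPM at week 8 and of 1.501 CPM at week 24 (log2 fold change -0.76 ± 0.14, adjusted p = 0.0211). Cdk6, a kinase that drives cells out of the first gap phase, stood at 4.51 to 5.69 CPM (median 5.20) and at 2.72 to 4.65 CPM (median 3.90). In 9 of 10 libraries of week 24 it lay below all of week 8, and the log2 fold change was -0.45 ± 0.093 (adjusted p = 0.0406). Lin52, a subunit of the complex that represses cell cycle genes in resting cells, moved the other way, from 10.99 to 15.5 CPM (median 14.6) to 16.4 to 19.2 CPM (median 17.4) with no overlap. Its log2 fold change was 0.31 ± 0.064 (adjusted p = 0.0406), the smallest of the 36. Cdk6 lost its call in 16 and Lin52 in 15 of 20 fits without 1 library.

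In the list of chromatin and DNA methylation genes, 1 of 29 tested fell, against 0.145% of all genes tested. Dnmt3a, which places new methyl groups on DNA, stood at 83.8 to 144 CPM (median 121) at week 8 and at 80.6 to 116 CPM (median 89.3) at week 24. The ranges overlapped, with week 24 male 5 the highest of its age, and the log2 fold change was -0.38 ± 0.079 (adjusted p = 0.0406). Dnmt3a lost the call in 15 of 20 fits without 1 library, with an adjusted p of up to 0.0923. The week 3 median was 202 CPM. Its relatives were not called, Dnmt1 at -0.20 ± 0.064 (adjusted p = 0.259) and Dnmt3b at -0.05 ± 0.26 (adjusted p = 0.956). Uhrf1, which guides maintenance methylation after replication and was named after its value was seen, was at -1.01 ± 0.22 (adjusted p = 0.0542). The list had 6 lower and 1 higher member at an unadjusted p under 0.05 and a median of -0.094.

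Collagen and basement membrane genes had a median of -0.35, with 31 of 34 tested members below 0. Of the 34, 3 fell (Col4a1, Col4a2 and Col3a1), and 16 were lower and 0 higher at an unadjusted p under 0.05. The shares over all genes tested were 0.145% called lower and 5.65% lower at an unadjusted p under 0.05. Col4a1 and Col4a2 encode the chains of the type IV collagen found in every basement membrane, and Col3a1 encodes a fibrillar collagen of vessel walls and meninges.

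The collagen IV genes lie head to head on chromosome 8 and are transcribed away from a shared promoter. Their windows are shown because the pair moved together. In GRCm38.p6 the Col4a1 window is chr8:11312777-11313076 on the minus strand and the Col4a2 window chr8:11312555-11312854 on the plus strand, and they share 78 bases. Capitals again mark CCAAT and GGGCGG on either strand.
Col4a1: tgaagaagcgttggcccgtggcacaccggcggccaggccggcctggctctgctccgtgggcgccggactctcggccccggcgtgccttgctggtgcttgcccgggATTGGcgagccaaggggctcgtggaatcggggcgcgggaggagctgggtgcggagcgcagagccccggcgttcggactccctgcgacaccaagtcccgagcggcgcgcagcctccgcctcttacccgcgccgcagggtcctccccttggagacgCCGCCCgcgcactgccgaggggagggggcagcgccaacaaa
Col4a2: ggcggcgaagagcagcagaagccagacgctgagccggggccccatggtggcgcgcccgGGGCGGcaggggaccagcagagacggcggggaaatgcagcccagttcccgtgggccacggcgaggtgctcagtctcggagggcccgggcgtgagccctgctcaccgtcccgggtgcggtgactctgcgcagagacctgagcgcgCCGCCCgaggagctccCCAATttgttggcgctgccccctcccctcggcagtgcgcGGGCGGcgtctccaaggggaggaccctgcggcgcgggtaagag
The Col4a1 window holds 1 CCAAT match and 1 GC box, the Col4a2 window 1 CCAAT match and 3 GC boxes. The GC box of Col4a1 lies in the 78 shared bases and is the same site as the last GC box of Col4a2.

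Col4a1 (chr8:11198423-11312889) stood at 41.7 to 75.9 CPM (median 47.2) at week 8 and at 28.8 to 39.2 CPM (median 31.3) at week 24, with no overlap. Its log2 fold change was -0.62 ± 0.093 (adjusted p = 0.00514). Col4a2 (chr8:11312805-11449287) stood at 44.2 to 84.3 CPM (median 55.5) and at 33.03 to 46.02 CPM (median 38.3), a log2 fold change of -0.57 ± 0.092 (adjusted p = 0.00787). In 9 of 10 libraries of week 24 it lay below all of week 8.

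Week 8 female 1 was the highest library for both chains, at 75.9 and 84.3 CPM against 51.9 and 56.9 CPM in the next. Without it the log2 fold changes were -0.54 ± 0.067 for Col4a1 and -0.49 ± 0.066 for Col4a2, with adjusted p of 0.000611 and 0.00159. Week 3 medians were 107 and 94.97 CPM. Where the annotated genes overlap at their starts, reads cannot be assigned with certainty, since the strand setting of the counting is not given in the sources used here.

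Col3a1 (chr1:45311538-45349706) stood at 2.61 to 20.3 CPM (median 6.50) at week 8 and at 1.64 to 3.996 CPM (median 2.22) at week 24, and 8 of 10 libraries of week 24 lay below the lowest of week 8. Col3a1 had a log2 fold change of -1.69 ± 0.31 (adjusted p = 0.0225). The call of Col3a1 was lost in 7 of 20 fits that left out 1 library, with an adjusted p of up to 0.0623. Col1a1, the main fibrillar collagen of meninges, was close to the threshold at -1.30 ± 0.28 (adjusted p = 0.0542), with 9.40 to 48.6 CPM at week 8 and 5.07 to 16.9 CPM at week 24. Nid1, a linker of basement membranes named after its value was seen, was at -0.71 ± 0.15 (adjusted p = 0.0530).

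Markers of mural cells and meninges are given beside this list, since both make collagen. Of 21 such genes tested, 0 were called, 4 were lower and 0 higher at an unadjusted p under 0.05, and the median was -0.20. With a covariate built from these markers, chosen after the data were seen, Col3a1 was at -1.11 ± 0.14 (adjusted p = 0.000592), Col4a1 at -0.57 ± 0.093 (0.00886) and Col4a2 at -0.53 ± 0.095 (0.0198). The median of the collagen list was then -0.18, with 5 members called lower. Without week 8 female 3 and week 24 male 4, the libraries richest in those markers, Col3a1 was at -1.60 ± 0.25 (adjusted p = 0.00849), and again 5 members were called lower. The defining pericyte gene Pdgfrb was at -0.17 ± 0.090 (adjusted p = 0.499) and the fibroblast gene Dcn at -0.05 ± 0.34 (0.968).

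Among endothelial genes, Aplnr was the only call of 28 tested. It encodes the apelin receptor, which endothelial cells use in vessel sprouting (chr2:85136360-85139923). Its level was 0.211 to 1.13 CPM (median 0.679) at week 8 and 0.0298 to 0.388 CPM (median 0.117) at week 24, and 7 of 10 libraries of week 24 lay below the lowest of week 8. The log2 fold change of -2.17 ± 0.36 (adjusted p = 0.00937) was the lowest of all genes tested, and the week 3 median was 1.10 CPM. The list had 6 lower and 1 higher member at an unadjusted p under 0.05 and a median of -0.10.

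Cd93, a lectin-like receptor of endothelial cells in growing vessels that was in no list (chr2:148436651-148443535), stood at 12.6 to 20.3 CPM (median 14.6) at week 8 and at 7.75 to 11.8 CPM (median 10.4) at week 24, without overlap. Cd93 had a log2 fold change of -0.55 ± 0.084 (adjusted p = 0.00514), and the week 3 median was 20.6 CPM. The genes that define endothelium were not called. Cldn5, a tight junction protein, was at -0.18 ± 0.095 (adjusted p = 0.493), Pecam1 at -0.06 ± 0.066 (0.768) and Cdh5 at -0.20 ± 0.091 (0.425).

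The remaining lower genes have varied roles. Chst3, a sulfotransferase that modifies the chondroitin chains of extracellular matrix, stood at 4.26 to 7.05 CPM (median 5.28) at week 8 and at 3.02 to 4.24 CPM (median 3.79) at week 24, without overlap by a narrow margin. Its log2 fold change was -0.59 ± 0.10 (adjusted p = 0.00874). Nkd1, an inhibitor of Wnt signalling, had medians of 16.7 and 12.2 CPM (-0.44 ± 0.083, adjusted p = 0.0225). Map4k4, a kinase of stress signalling, had medians of 220 and 155 CPM (-0.46 ± 0.086, adjusted p = 0.0225), and its libraries of week 24 were tightly grouped at 141 to 162 CPM against 150 to 276 CPM at week 8.

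Marcksl1, an actin-binding protein of growing neurites, fell from a median of 89.6 CPM to 61.4 CPM (log2 fold change -0.51 ± 0.10, adjusted p = 0.0288), a call lost in 10 of 20 fits without 1 library. Rnf122, a ubiquitin ligase, fell from 5.97 to 3.58 CPM (-0.78 ± 0.15, adjusted p = 0.0288), and its highest week 8 library was male 5 at 11.1 CPM. Without week 8 female 1 its adjusted p was 0.0537, and its call was lost in 9 of 20 fits without 1 library.

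The pair of enzymes that make creatine moved in opposite directions. Gatm, which catalyses the opening step, stood at 58.2 to 88.4 CPM (median 69.1) at week 8 and at 70.0 to 110 CPM (median 94.5) at week 24, a log2 fold change of 0.41 ± 0.086 (adjusted p = 0.0486). Gamt, which completes the synthesis and is rich in oligodendrocytes, stood at 8.44 to 14.9 CPM (median 11.1) and at 6.30 to 9.26 CPM (median 7.92), a log2 fold change of -0.50 ± 0.10 (adjusted p = 0.0406). Both calls are near the threshold: Gatm lost it in 17 and Gamt in 13 of 20 fits without 1 library.

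Of the other higher genes, Zc3hav1, an antiviral protein that binds CpG-rich RNA, stood at 6.86 to 11.6 CPM (median 7.83) at week 8 and at 7.71 to 14.5 CPM (median 12.1) at week 24 (log2 fold change 0.54 ± 0.11, adjusted p = 0.0288). Zc3hav1 lost its call in 8 of 20 fits without 1 library. Xdh, the last enzyme of purine breakdown, stood at 3.999 to 7.56 CPM (median 5.01) and at 5.78 to 12.3 CPM (median 7.86), a log2 fold change of 0.71 ± 0.14 (adjusted p = 0.0368). Xdh lost its call in 13 of 20 fits without 1 library. Mlph, melanophilin, a linker of vesicles to myosin, rose from a median of 1.62 to 2.82 CPM (0.78 ± 0.14, adjusted p = 0.0211). Spag6, a protein of motile cilia, rose from 1.09 to 2.33 CPM (0.99 ± 0.17, adjusted p = 0.0138). Its close relative Spag6l can share reads with it, so the Spag6 count is uncertain, and the ependyma and motile cilia list had 0 calls of 20 tested and a median of -0.24.

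Gene models without a name made up the rest of the higher calls. The noncoding 7630403G23Rik (chr9:34042371-34059019) stood at 0.0365 to 0.169 CPM (median 0.106) at week 8 and at 0.122 to 1.12 CPM (median 0.449) at week 24. In 9 of 10 libraries of week 24 it lay above all of week 8, and the log2 fold change was 2.24 ± 0.36 (adjusted p = 0.00787). At week 3 its median was 0 CPM. LOC108167575 (0.80 ± 0.14, adjusted p = 0.0150), G530011O06Rik (1.24 ± 0.25, 0.0403) and Gm36388 (1.44 ± 0.30, 0.0406) were also higher. G530011O06Rik lost its call in 15 and Gm36388 in 16 of 20 fits without 1 library.

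**Figure D2:**
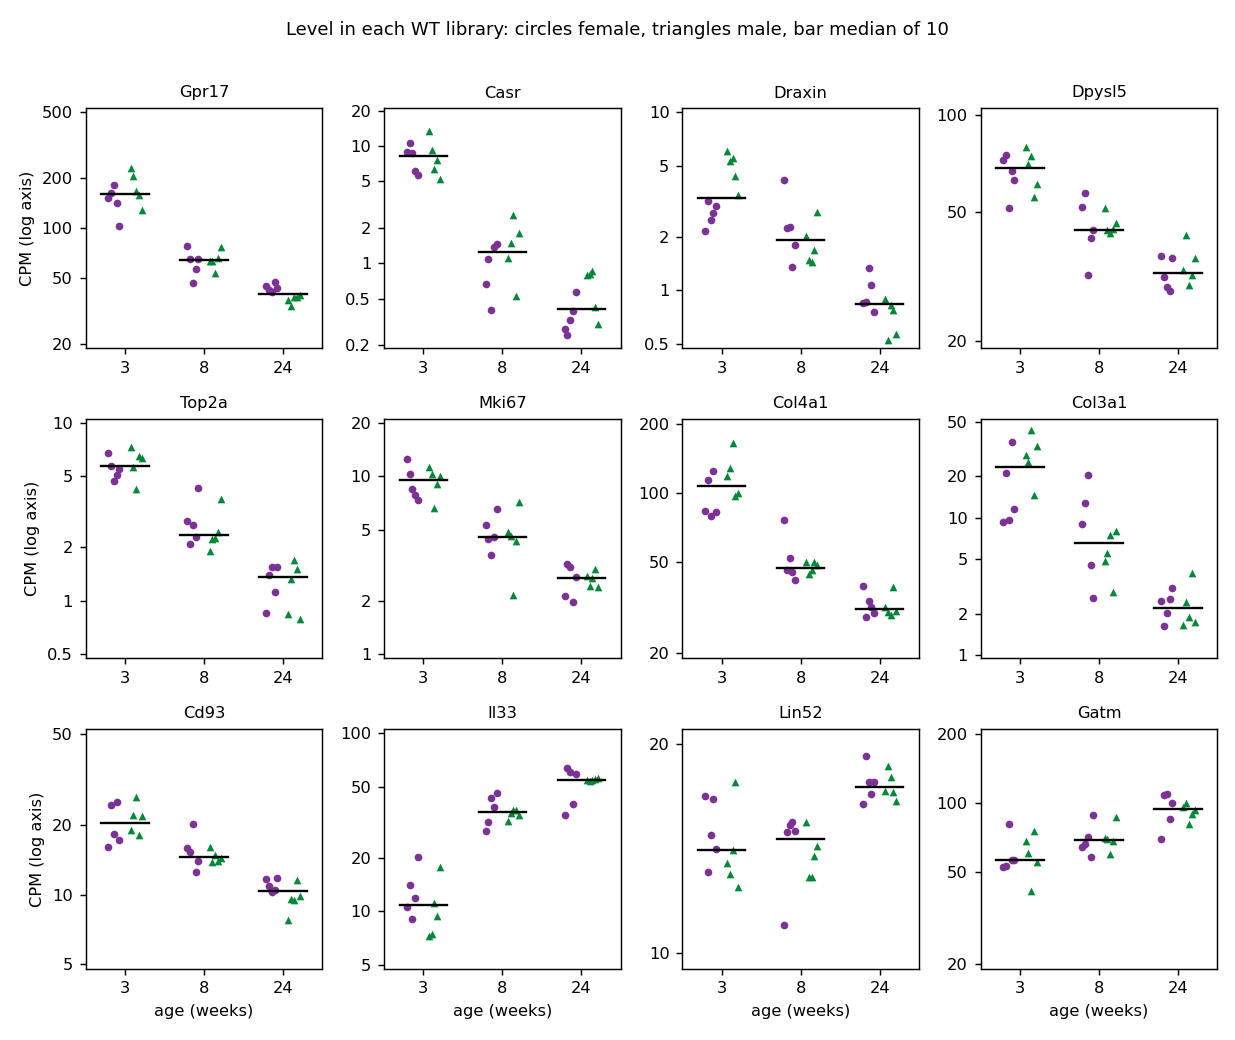
CPM on a log axis in each WT library at 3, 8 and 24 weeks for 12 of the called genes, with females as circles, males as triangles and the median of 10 as a bar. Week 24 lies apart from week 8 for Draxin, Top2a, Col4a1, Cd93 and Lin52, and the ages overlap for the others.

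Levels of week 3 are given beside the adult values because the series has them, and the comparison of week 8 with week 3 shares the week 8 libraries. In that comparison 855 genes were called, 5.01% of 17055 tested, 283 higher and 572 lower. Side by side, the log2 fold change of week 8 over week 3 and that of week 24 over week 8 were -1.36 and -0.65 for Gpr17, -2.71 and -1.35 for Casr, and -1.13 and -0.62 for Col4a1. They were -1.12 and -1.07 for Top2a, -0.21 and -0.51 for Nes, and 1.62 and 0.54 for Il33. Spag6 was at 0.26 (adjusted p = 0.641) in the earlier interval and at 0.99 in the later one, and Zc3hav1 at 0.098 (0.691) and 0.54.

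Lists of mature cell types and functions held few calls or none. Of 41 lists with 1109 members in the table, 8 held at least 1 called gene and 33 held none, and 15 of the 36 called genes were in a list. The homeostatic microglia list had 0 calls of 24 tested, with 7 higher and 0 lower members at an unadjusted p under 0.05 and a median of 0.093. P2ry12, the purine receptor of resting microglia, was at 0.33 ± 0.17 (adjusted p = 0.474), Cx3cr1 at 0.19 ± 0.067 (0.306) and Tmem119 at -0.10 ± 0.11 (0.763). The complement list had 0 calls of 18 and a median of 0.096, and antigen presentation 0 of 22 and a median of 0.21. In the latter the protease Ctss was nearest to a call, at 0.28 ± 0.063 (adjusted p = 0.0579).

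Neuronal lists held no call, which in lists of this size is close to the 0.209% called over all genes tested. Their median was -0.046 for granule cells of the dentate gyrus (23 tested), 0.012 for pyramidal cells of the CA fields (26 tested) and 0.076 for interneurons (33 tested), against -0.0050 for all genes tested. The list of synaptic vesicle and postsynaptic density genes (33 tested) had no member at an unadjusted p under 0.05 and a median of -0.061. Of the AMPA, NMDA and GABA-A receptor genes, 0 of 32 were called, with a median of 0.035. The astrocyte list had 0 calls of 29 and a median of -0.00044, and Gfap was at -0.26 ± 0.15 (adjusted p = 0.533).

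The mitochondrially encoded genes had no call and a median of 0.35, and all 13 were above 0. They summed to 6050 to 32326 CPM (median 17137) at week 8 and to 19227 to 30666 CPM (median 22359) at week 24. Without week 8 female 1 the median was 0.24. COX2, a subunit of cytochrome oxidase, was at 0.54 ± 0.18 (adjusted p = 0.294). Of 39 cytosolic ribosome genes 12 were higher and 1 lower at an unadjusted p under 0.05, with a median of 0.090 and no call. App itself stood at 1587 to 2384 CPM at week 8 and at 1670 to 1879 CPM at week 24, with a log2 fold change of -0.13 ± 0.065 (adjusted p = 0.477).

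**Figure D3:**
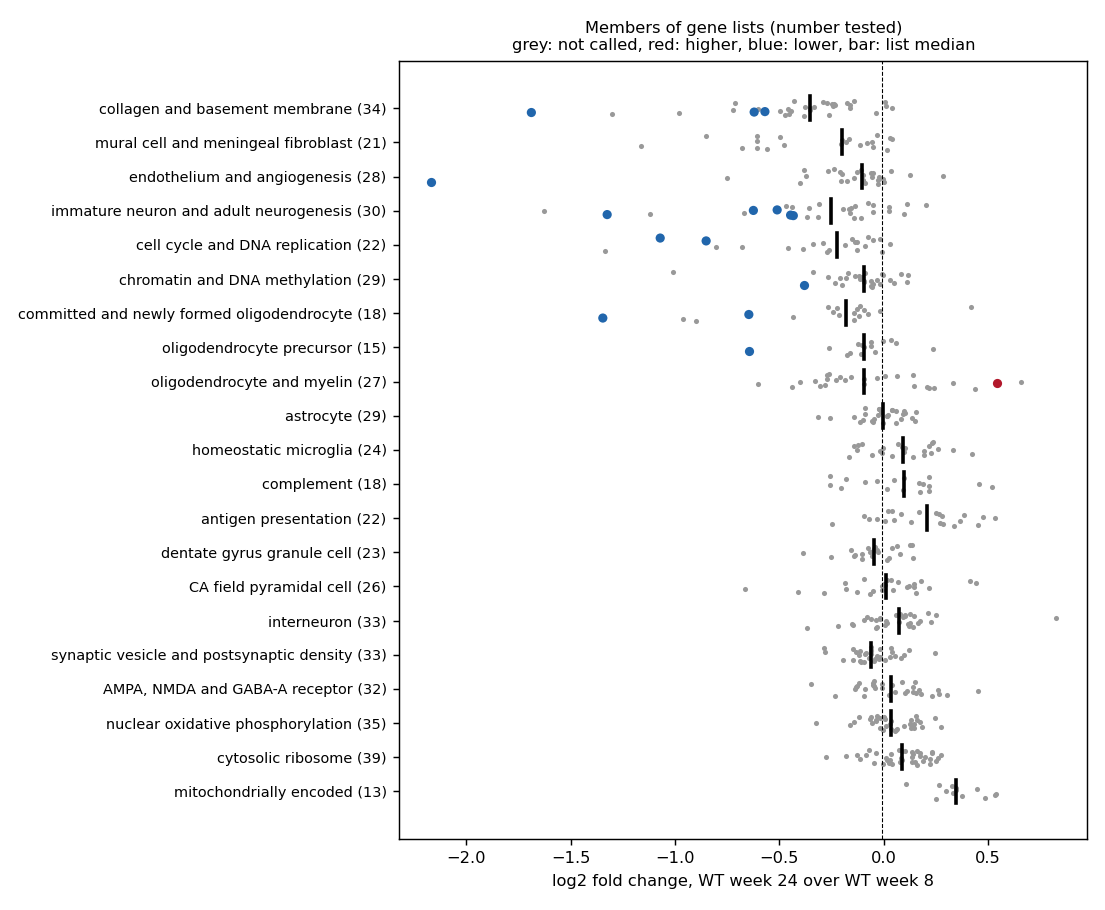
Log2 fold change of WT week 24 over week 8 for each tested member of 21 gene lists (number tested in brackets), with called genes in red (higher) or blue (lower), the list median as a bar and the median of all genes tested as a dashed line. The collagen list has a median of -0.35, and the neuronal and astrocyte medians lie within 0.1 of the dashed line.

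Males and females were compared by a test of the difference of their age effects. No gene was called (0 of 17199, smallest adjusted p = 0.426), with 1622 genes at an unadjusted p under 0.05 and 1 call in DESeq2. For Gpr17 the log2 fold change was -0.77 ± 0.093 in males and -0.53 ± 0.12 in females, and the difference, males minus females, was -0.27 ± 0.15 (unadjusted p = 0.0965, adjusted p = 0.608). Col3a1 was at -1.29 in males and -2.09 in females, a difference of 0.78 ± 0.60 (unadjusted p = 0.208, adjusted p = 0.713). Aplnr was at -1.51 and -2.91, a difference of 1.38 ± 0.70 (unadjusted p = 0.0639, adjusted p = 0.558). Fitted alone, the 10 male libraries gave 18 calls and the 10 female libraries 0, with 2806 and 929 genes at an unadjusted p under 0.05.

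The same ages were compared in NLGF mice, in libraries that the WT comparison does not use. The library labelled NLGF week 8 female 5 stands apart from the other 9 of its group. It had 135 CPM of Gpr17 (48.2 to 64.0 CPM in the others), 9.27 CPM of Casr (0.656 to 1.13 CPM), 24.1 CPM of Rnf122 (4.13 to 6.92 CPM) and 10.5 CPM of Il33 (31.3 to 47.4 CPM). These values lie within the WT week 3 libraries, at 103 to 229, 5.28 to 13.5, 12.4 to 29.9 and 7.27 to 20.1 CPM. Of the 36 genes called in WT, 24 lay outside the range of the other 9 libraries in this one, and 20 of these 24 lay within the range of WT week 3. All its labels give week 8, and why it differs was not tested. Each NLGF result is therefore given with this library and, as a choice made after seeing the data, without it.

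With all 20 NLGF libraries, 475 genes were called of 17746 tested, 309 higher (1.74%) and 166 lower (0.935%). Of the 36 genes called in WT, 34 had the same direction in NLGF (94.4%), against 67.3% of the 17129 genes tested in both. In NLGF, 22 of the 36 were also called in the same direction, 7 of the 11 higher and 15 of the 25 lower genes. The 22 are 61.1% of the WT calls and 4.63% of the NLGF calls. Without NLGF week 8 female 5, 409 genes were called, 272 higher and 137 lower. Of the 36, 33 then had the same direction, against 65.5% of the 17153 genes tested in both. The called overlap was 23, 7 higher and 16 lower, which is 63.9% of the WT calls and 5.62% of the NLGF calls. Without NLGF week 8 female 1, the library with conflicting labels, 309 genes were higher and 159 lower.

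With all libraries the 25 lower genes were below 0 in NLGF too, with a median log2 fold change of -0.51 there and -0.59 in WT. Without NLGF week 8 female 5, 24 of the 25 were, the exception being Cdk6, and the median was -0.47. Gpr17 was at -0.71 ± 0.15 (adjusted p = 0.0103), Draxin at -1.38 ± 0.23 (0.000726), Col4a1 at -0.51 ± 0.069 (7.56e-05), Col4a2 at -0.49 ± 0.044 (1.06e-07) and Aplnr at -1.77 ± 0.28 (0.000416). Without that library Gpr17 was at -0.53 ± 0.060 (adjusted p = 8.60e-06), Draxin at -1.18 ± 0.19 (0.000799), Col4a1 at -0.48 ± 0.069 (0.000218), Col4a2 at -0.47 ± 0.041 (1.73e-07) and Aplnr at -1.72 ± 0.29 (0.00115). All 5 remained called.

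For Mki67, Top2a and Cdk6 the difference from WT is given too. Some other called genes differed more, such as Gm36388 at -1.79 (adjusted p = 0.0977), and the mitotic gene Aspm differed less, at 0.32. In NLGF, Mki67 was at -0.32 ± 0.11 (adjusted p = 0.130) and Top2a at -0.58 ± 0.15 (0.0375), and the tested difference from WT was 0.53 for Mki67 (adjusted p = 0.659) and 0.50 for Top2a (adjusted p = 1.00). Cdk6 was at -0.03 ± 0.13 in NLGF (adjusted p = 0.939), and its difference from WT was not called either (0.42, adjusted p = 0.667). Without NLGF week 8 female 5, Mki67 was at -0.28 ± 0.11 (adjusted p = 0.252) and Cdk6 at 0.036 ± 0.12 (0.950), and Top2a, at -0.47 ± 0.14, was no longer called (adjusted p = 0.0796). The differences from WT were then 0.59 for Mki67 (adjusted p = 0.4662), 0.62 for Top2a (0.619) and 0.49 for Cdk6 (0.239), none called.

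The age effects of the genotypes differed for 64 genes, 0.354% of 18077 tested, 61 with a more positive effect in NLGF and 3 with a more negative one. Without NLGF week 8 female 5 the counts were 55 and 2, and without NLGF week 8 female 1 they were 56 and 3. The smallest p-values belonged to Itgax, Mpeg1, Cst7, Ccl6 and Ctss, genes of activated microglia and macrophages. In WT, Mpeg1, Ccl6 and Ctss were not called, and Itgax and Cst7 fell under the filter on low counts and were not tested. Itgax and Cst7 entered the test of the difference only through their levels at NLGF week 24. For Mpeg1 the log2 fold change was 0.13 in WT and 1.24 in NLGF, a difference of 1.12 ± 0.10 (adjusted p = 4.85e-10), and of 1.13 ± 0.10 without NLGF week 8 female 5 (adjusted p = 9.62e-10). Only 1 of the 36 genes called in WT, LOC108167575, was among the 64. It was at 0.80 in WT and -0.26 in NLGF, a difference of -1.07 ± 0.21 (adjusted p = 0.00307), or -1.11 ± 0.21 without NLGF week 8 female 5 (adjusted p = 0.00247). Its mean level was 5.61 ± 1.3 CPM at week 8 and 9.79 ± 2.3 CPM at week 24 in WT, and 8.11 ± 2.3 and 6.58 ± 1.3 CPM in NLGF (SD, n = 10 each).

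**Figure D4:**
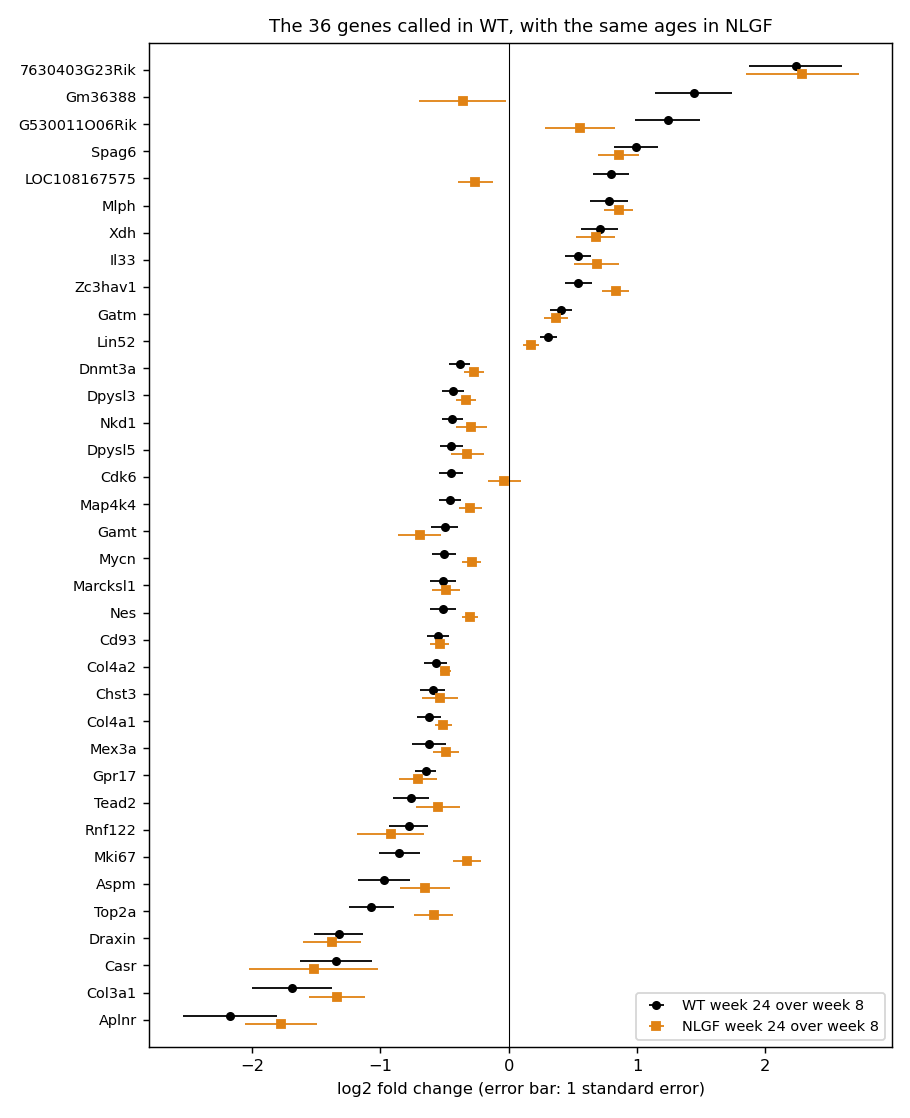
Log2 fold change of week 24 over week 8 with 1 standard error for the 36 genes called in WT (black circles), beside NLGF (orange squares, all 10 libraries at each age, NLGF week 8 female 5 included). All 25 lower genes lie below 0 in both genotypes, and Gm36388 and LOC108167575 have opposite signs.

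RefSeq promoter windows (300 bases, GRCm38.p6) were found for 28 of the 36 called genes and for 12527 of the 17199 tested. The GC box GGGCGG, read on both strands, occurred in 17 of 21 windows of lower genes (81.0%), in 4 of 12 windows of higher genes (33.3%) and in 56.9% of the 16095 windows of all tested genes. CCAAT occurred in 38.1%, 41.7% and 37.2% of the same sets. The E-box CACGTG was in 9.52% of the lower, 25% of the higher and 9.15% of all windows. TGACGTCA and TGANTCA occurred in none of the windows of called genes and in 2.73% and 5.41% of all windows. A match is a run of letters and no evidence of binding. Some genes have more than 1 window, and the Col4a1 and Col4a2 windows share a GC box.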

How the data were processed

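Bulk hippocampus RNA was sequenced after ribosomal RNA depletion, per the labels' protocols. The authors deposited raw read counts per gene, used here as deposited, and per the submitters' processing notes FastQC, STAR, edgeR, DESeq2 and build mm10 were used. No source used here gives the counting program, its annotation, whether it used strand, or tool versions. All 36 called genes are described, with the genes a rule names: the called genes with the largest folds and smallest p-values, called members of each list, the first 3 members of lists, and App. The members and gene lists were chosen with earlier results of these data known.

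The 20 WT libraries of weeks 8 and 24 were fitted alone in edgeR 4.0.16 (R 4.3.3) with sex and age as terms. Genes were kept by filterByExpr with a minimum count of 10, libraries were scaled by TMM, and the robust quasi-likelihood F-test was adjusted by Benjamini-Hochberg over all genes tested at 0.05. All tests were 2-sided, the standard error is the log2 fold change divided by the square root of F, and the scripts were tested on simulated data. Levels are CPM from 1 TMM scaling over 50 libraries. Lists are described by counts and medians, with no set test. Gene symbols matched RefSeq for 32501 of 35976 rows (90.3%). Alternatives used RLE scaling, DESeq2 1.42.0, limma 3.58.1 voom, other filters and covariates, single sexes and each library left out. Replicate numbers were not treated as pairs in the main fit, and the promoter windows come from RefSeq.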

Additional observations from a re-analysis of the deposited data

Results flagged for a closer look

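In 9 of 88 groups of 10 libraries examined (10.2%), the highest or lowest library lay apart from the rest by Dixon's criterion. Chance gives this in about 1 in 20 groups of independent, normally distributed values. The CPM were used without a log and the groups share libraries, so that rate need not hold here. WT week 8 female 1 was the highest of its age for Draxin at 4.14 CPM (next 2.74), for Col4a1 at 75.9 CPM (next 51.9) and for Col4a2 at 84.3 CPM (next 56.9), and its median correlation with the other libraries was the lowest at 0.971 (next 0.978). WT week 8 female 3 was the highest for Cd93 at 20.3 CPM (next 16.04) and for Zc3hav1 at 11.6 CPM (next 8.80). WT week 8 male 5 was the highest for Rnf122 at 11.1 CPM (next 7.34). At week 24, male 5 was the highest for Dnmt3a at 115.8 CPM (next 99.2), and male 4 had the highest sum of mural and meningeal markers at 862 CPM (next 612.5).

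The age effect differed between NLGF and WT by an interaction test in edgeR for 64 genes, of which the leading ones in each direction are given as log2 differences, NLGF minus WT. The difference was 4.01 ± 0.34 for Itgax, 1.12 ± 0.10 for Mpeg1, 5.25 ± 0.49 for Cst7, 2.32 ± 0.24 for Ccl6 and 0.80 ± 0.084 for Ctss. It was -1.07 ± 0.21 for LOC108167575, -1.36 for LOC108168884 and -0.31 for Cox8a. Without NLGF week 8 female 5, a library that stands apart, it was 3.94 ± 0.34 for Itgax, 5.37 ± 0.50 for Cst7, 2.39 ± 0.24 for Ccl6, 0.79 ± 0.086 for Ctss and -1.35 ± 0.32 for LOC108168884, and Cox8a, at -0.31, was no longer called (adjusted p = 0.0648). Cox8a, a subunit of cytochrome oxidase, was at 0.28 ± 0.066 in WT (adjusted p = 0.0951). Itgax and Cst7 were too low in WT to be tested there, with means of 0.31 and 0.30 CPM at WT week 24. Their means were 0.25 and 0.15 CPM at NLGF week 8 and 4.69 and 6.76 CPM at NLGF week 24. They entered the interaction test only through NLGF week 24, so their large differences are no independent result.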

How the results depend on the processing

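All 36 genes kept their direction in every alternative that tested them (30 of 30 with at least 1 CPM in 10 samples), while the counts moved. The alternatives reuse the libraries that called these genes, so the kept direction is no independent support. Against 11 higher and 25 lower genes, the counts were 60 and 82 with DESeq2, 32 and 44 with voom, 1 and 3 in a test against a fold of 1.2, 19 and 38 with a covariate for other tissue, 7 and 43 in 1 fit of all 30 WT samples, 5 and 13 in males alone and 0 and 0 in females alone. With at least 1 CPM in 10 samples 7 were higher. All 36 remained called with DESeq2, 34 with voom, 35 with RLE scaling (36 calls, median of all genes shifted by -0.0012), 31 with no filter on low counts and 35 with no sex term (46 calls). Leaving out 1 library gave 3 to 17 higher and 11 to 38 lower genes. The total was 15 without week 8 female 2 and 55 without week 8 female 3. It was 20, 22 and 23 without week 8 males 2, 1 and 4. It was 22, 18 and 22 without week 24 females 2, 3 and 4, and 18, 20 and 17 without week 24 males 1, 2 and 3. In all 20 such fits 14 genes remained called, and 15 of the 36 were lost in at least 10.

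Most same-numbered samples did not deviate together: over 10 pairs r was -0.299 to 0.442, and 3 were over 0.1. Of the samples, 2 correlated best with their own number, female 3 (r = 0.442) and female 5 (r = 0.251). Whether samples of the same number were handled together was not tested. A replicate block left 2 higher and 4 lower genes, all 6 among the 36, and 132 higher and 380 lower genes in week 8 over week 3 (283 and 572 without it). DESeq2 gave 485 higher genes there, 1 call for the difference between the sexes, 297 lower genes in NLGF, and 8 lower genes for the difference between the genotypes. Leaving out 1 library gave 114 to 276 lower genes in NLGF (166 in all, 261 and 276 without NLGF week 8 males 4 and 5) and 2 to 5 for the genotype difference (5 without NLGF week 24 female 3 or 5). The causes were not tested. Depth limits the genes below 1 CPM, such as Aplnr and 7630403G23Rik.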

Other observations

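Lars2, the mitochondrial leucyl-tRNA synthetase, stood at 240.15 CPM in week 8 female 1, at 239.71 CPM in week 8 female 3 and at 16.7 to 39.9 CPM in the other 8 libraries of week 8. At week 24 it stood at 48.5 to 750 CPM (median 398), so that all but 2 libraries of week 8 lay below every library of week 24. The log2 fold change of 2.94 ± 0.71 was not called (adjusted p = 0.116). Mir6236 was at 34.7 and 20.9 CPM in the same females 1 and 3, at 0 to 6.01 CPM in the other 8 and at 1.72 to 46.03 CPM (median 28.7) at week 24, with a log2 fold change of 2.23 ± 0.97 (adjusted p = 0.415). Neither RNA was called, and the levels of both also differ widely between libraries of the same age. In week 24 female 2 Mir6236 was at 1.72 CPM, below week 8 males 2 and 3 at 5.52 and 6.01 CPM. The part of these RNAs in the age comparison was not tested.

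Axon growth and guidance genes had no call of 39 tested, but 37 were below 0, with 6 lower and 0 higher at an unadjusted p under 0.05 and a median of -0.11. Heat shock and protein folding genes had no call of 33, with 6 lower and 0 higher and a median of -0.088. Clustered protocadherins had no call of 54, with 8 higher and 2 lower and a median of 0.0076.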
